A study of Mus musculus with 6 samples.

Results

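Open chromatin was examined around 56 mouse genes for transcription factors of the myeloid lineage and of myeloid activation, from Spi1, Cebpb and Runx1 to Nfkb1, Id1 and Vdr. The genes were listed by name and function, so the rule itself used no accessibility value, and they are 56 of the 21755 protein-coding genes that GENCODE M21 places on chromosomes 1 to 19 and X. A peak was assigned to a gene when it overlapped the gene body or the 20 kb on either side of it in mm10, and no peak fell into the window of more than 1 of the 56 genes. M-MDSCs, the monocytic kind of myeloid-derived suppressor cells (MDSCs), had been sorted as CD11b+Ly-6ChiLy-6G- cells from tumors that Hepa 1-6 cells, a mouse hepatoma line, had formed in the liver of wild-type (WT) female C57BL/6J mice aged 6 to 8 weeks. The mice received vehicle, MS-275 or CXD101. Both compounds inhibit the histone deacetylases HDAC1 to HDAC3, and each was injected daily at 5 mg/kg for 10 days. ATAC-seq, which reads open DNA by the insertion of a transposase, was run on 2 libraries per group, 6 in all, and the mice had been chosen for a high proportion of MDSCs in blood before dosing. The deposited peaks were called on the pooled libraries of a group against those of another, so they hold differences and no value per library. No spread between replicates can therefore be given, and every interval below covers counting error only. Levels in the cells are not part of the lists either, so the sorted cell type could not be checked against its markers.

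Transcription factors of this kind decide which genes a myeloid progenitor or monocyte can use. PU.1, the product of Spi1, opens and holds the enhancers of nearly every myeloid gene, C/EBP proteins drive granulocyte and monocyte programs, and RUNX and ETS factors set up the hematopoietic enhancers on which they act. KLF, EGR, NR4A, STAT and NF-kB factors respond to signals within this frame, Id proteins hold back E proteins such as Tcf4 by binding them, and nuclear receptors read lipids, retinoids and vitamin D. Their own genes are commonly controlled by several distal elements, many of them in introns. Histone deacetylases remove acetyl groups from histones, and inhibitors of them raise histone acetylation.

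The sequences of 8 peaks on which the results turn are given first, as the plus strand of mm10 within 100 bp of the summit. The first pair comes from an intron of Spi1, at chr2:91087742-91087942 (called A) and chr2:91089298-91089498 (called B). They were chosen after their values were seen, because they are among the strongest peaks of the 56 genes. The Id1 element lies upstream of the gene, at chr2:152729583-152729783, and was gained with each inhibitor. The Myb (chr10:21146549-21146749), Nfkb1 (chr3:135604589-135604789) and Id3 (chr4:136144818-136144879) sequences are the promoter peaks with the highest −log10 p-value in their groups of factors, except that Tcf4 had a higher one than Id3 and is not printed. Each of these printed promoter summits lies inside its gene. They are called promoter peaks because they overlap the 5 kb upstream of an annotated start within the gene. The Id3 stretch was shortened to leave out transcribed untranslated bases. The last pair lies downstream of Gfi1b and was lower after treatment, at chr2:28597685-28597885 (called nearer, for its distance to Gfi1b) in the MS-275 group and at chr2:28591347-28591547 (called shared) in both groups. Capitals mark a match to GGGCGG, the KLF/SP letters, in Id3 and to TTGCNNAA, the C/EBP letters, in the nearer Gfi1b element, each read on the opposite strand.
Spi1 intron A: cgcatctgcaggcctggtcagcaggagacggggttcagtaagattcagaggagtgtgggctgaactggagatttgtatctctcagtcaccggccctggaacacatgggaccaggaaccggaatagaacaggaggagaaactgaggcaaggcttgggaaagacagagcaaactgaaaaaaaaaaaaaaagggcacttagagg
Spi1 intron B: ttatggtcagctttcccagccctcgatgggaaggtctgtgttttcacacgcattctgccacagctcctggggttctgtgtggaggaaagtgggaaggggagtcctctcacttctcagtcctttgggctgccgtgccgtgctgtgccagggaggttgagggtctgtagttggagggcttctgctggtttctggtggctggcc
Id1 upstream: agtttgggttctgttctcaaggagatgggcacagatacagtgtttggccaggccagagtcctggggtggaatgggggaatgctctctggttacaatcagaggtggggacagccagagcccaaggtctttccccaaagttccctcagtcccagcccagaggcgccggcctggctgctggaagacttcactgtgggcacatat
Myb promoter: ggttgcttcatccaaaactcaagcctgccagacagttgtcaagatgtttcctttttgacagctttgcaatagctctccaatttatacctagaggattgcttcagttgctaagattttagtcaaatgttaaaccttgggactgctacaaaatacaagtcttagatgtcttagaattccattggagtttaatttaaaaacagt
Nfkb1 promoter: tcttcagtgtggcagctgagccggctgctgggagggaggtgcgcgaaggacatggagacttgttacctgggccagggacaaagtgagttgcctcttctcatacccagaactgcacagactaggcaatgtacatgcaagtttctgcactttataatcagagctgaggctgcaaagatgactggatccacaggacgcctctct
Id3 promoter: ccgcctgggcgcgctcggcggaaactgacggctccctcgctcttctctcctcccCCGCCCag
Gfi1b downstream, nearer: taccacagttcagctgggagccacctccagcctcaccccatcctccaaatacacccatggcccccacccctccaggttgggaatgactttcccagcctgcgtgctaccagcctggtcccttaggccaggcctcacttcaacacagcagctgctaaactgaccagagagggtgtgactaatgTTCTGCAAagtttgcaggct
Gfi1b downstream, shared: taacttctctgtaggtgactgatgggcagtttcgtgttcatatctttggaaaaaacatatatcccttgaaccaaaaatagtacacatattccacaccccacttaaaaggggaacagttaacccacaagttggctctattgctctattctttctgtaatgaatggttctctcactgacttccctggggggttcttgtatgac

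MS-275 was followed by gained peaks at most of these genes. At least 1 peak with more signal after MS-275 than after vehicle (MS-275 gained) lay at 32 of the 56 genes, or 57.1% (95% Wilson interval 44.1 to 69.2), whereas 18.8% of all protein-coding genes had such a peak. Peaks with more signal after CXD101 than after vehicle (CXD101 gained) lay at 4 of the 56 genes, beside 0.97% of all genes. Peaks that were lower after treatment were rare and near the background, at 2 genes with MS-275 (2.93% of all genes) and at 2 with CXD101 (3.65% of all genes). The direct comparison found higher signal in the MS-275 than in the CXD101 group (MS-275 over CXD101) at 16 of the 56 genes, or 28.6% (18.4 to 41.5), beside 6.68% of all genes. These shares are to be read beside the lengths of the lists, which hold 8480 MS-275 gained, 284 CXD101 gained and 1650 MS-275 over CXD101 peaks in all. The lists of lower signal hold 691 peaks for MS-275 and 693 for CXD101. Both are longer than the CXD101 gained list, but they reached fewer of the 56 genes. The reverse list, CXD101 over MS-275, held 2 peaks in the whole genome and 0 at these genes, with 0.0138% of all genes called. The genes were chosen with earlier results of these data known, so the distance from the background is a description. In pooled cells, a site that is more open in every cell and a site that is open in more of the cells cannot be told apart. The 2 comparisons with vehicle used the same vehicle libraries, and the direct comparison used the same treated libraries again.

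The 32 genes held 144 MS-275 gained peaks in 119 intervals, where an interval with several summits counts once per summit. This came to 2.51 peaks per 100 kb of the windows, against 0.454 per 100 kb around all protein-coding genes and 0.322 per 100 kb of the genome. Etv6, Fli1 and Id1 together held 52 of the 144 peaks, and without them the density was 1.75 per 100 kb. For MS-275 over CXD101 the density was 0.679 per 100 kb of the windows and 0.0889 per 100 kb around all genes. Long genes catch more peaks, and the windows of the 56 genes had a median length of 67 kb, compared with 57.4 kb for all genes. The shares were therefore also read within classes of window length. Among windows under 60 kb, 13 of 24 transcription factor genes (54.2%) had an MS-275 gained peak, compared with 12.8% of all genes of that length. The corresponding shares were 41.2% and 19.5% at 60 to 100 kb, and 66.7% and 29.1% at 100 to 200 kb. Above 200 kb all 6 transcription factor genes had a peak, beside 45.7% of all genes. The share of the transcription factor genes was thus above that of all genes in each of the 4 classes. In the direct comparison the shares were 20.8% and 4.99% under 60 kb, 23.5% and 6.88% at 60 to 100 kb, 44.4% and 9.92% at 100 to 200 kb, and 50% and 13.6% above 200 kb.

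**Figure D1:**
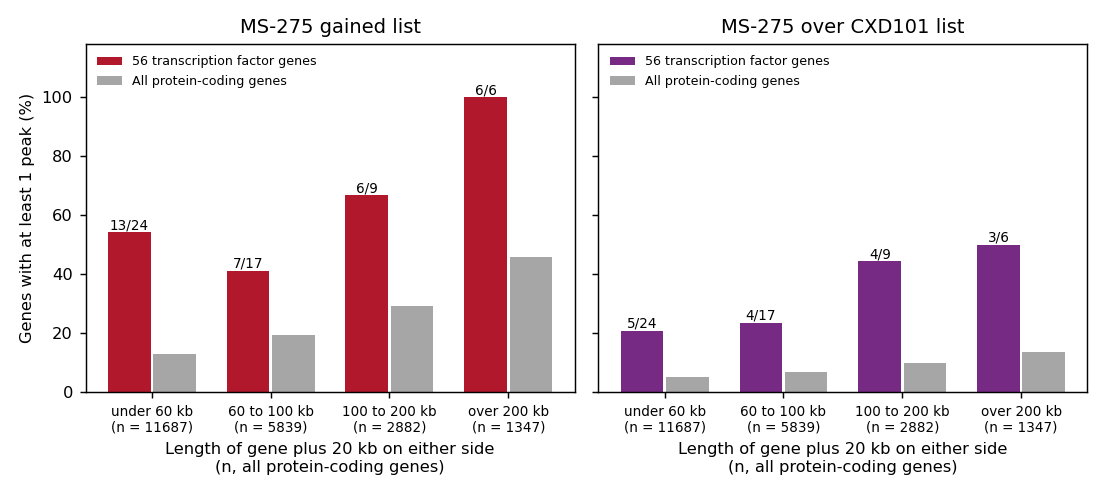
Percentage of genes with at least 1 peak in the gene or within 20 kb (vertical axis), by length of that window (horizontal axis), for the 56 transcription factor genes (colored bars, with counts) and all protein-coding genes (gray bars). In both lists the colored bar is above the gray bar in each length class, for example 54.2% against 12.8% for MS-275 gained peaks in windows under 60 kb.

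The peaks were spread unevenly over the genes. Of the 32 genes with an MS-275 gained peak, 12 had 1 peak, 10 had 2 to 5 and 10 had more than 5. The last 10 held 104 of the 144 peaks. The median fold enrichment was 2.74 over the 144 peaks (range 1.54 to 5.51), close to the median of 2.88 over the whole list. Fold enrichment is the linear ratio of MS-275 tags at the summit to the vehicle control level, with 1 added to each. The control level is the largest of several local averages and not the vehicle tags at the summit. Wherever tags are given over a second number below, that number is a control level. At the median, 53.3 MS-275 tags stood over a vehicle control level of 16.5, both at vehicle depth. The genes thus differed from the genome in how many peaks they had, while the size of a single gain was similar.

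**Figure D2:**
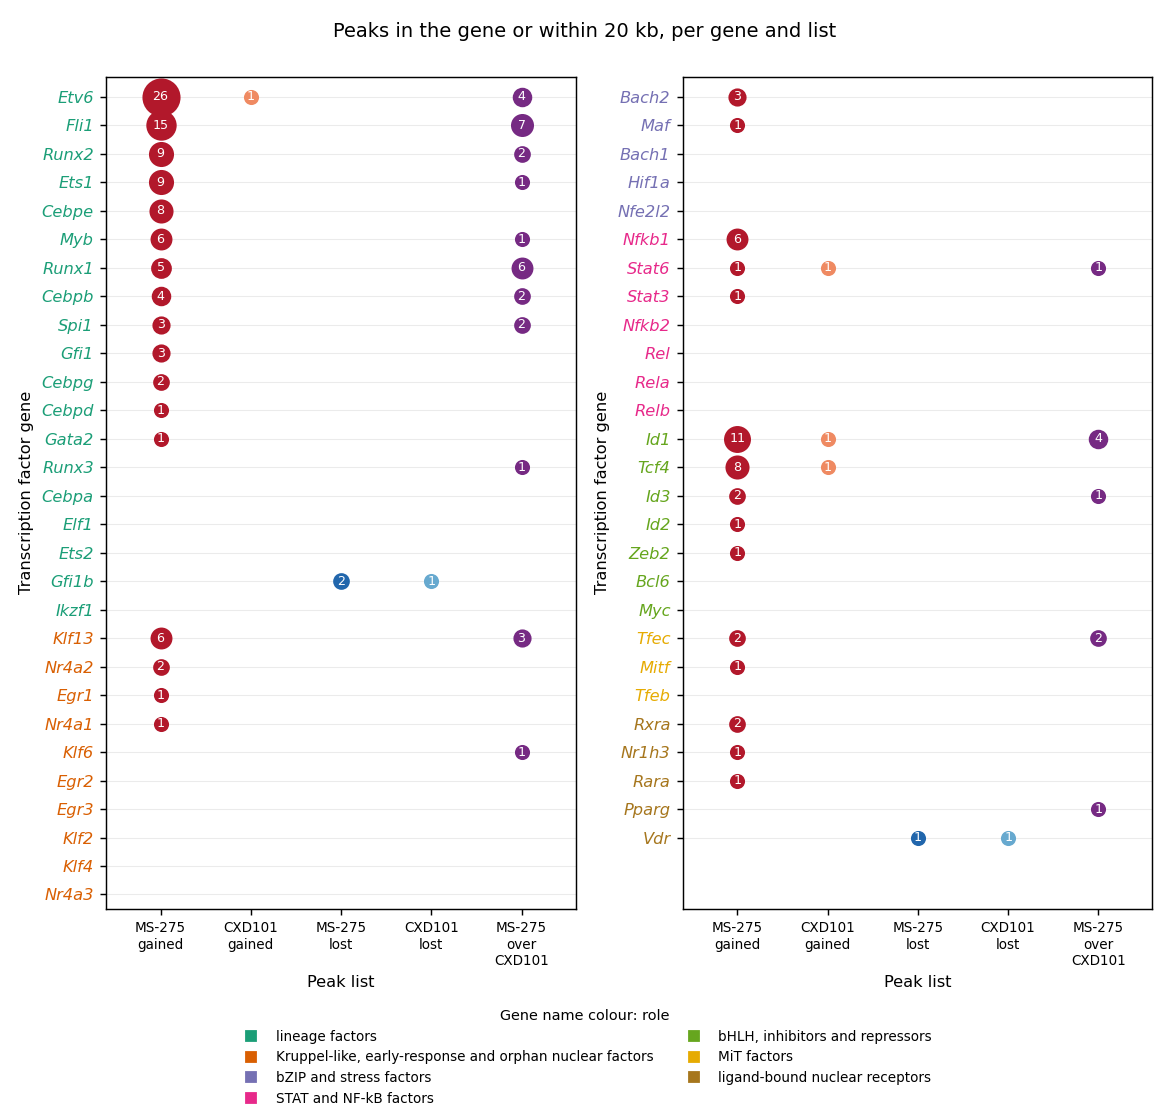
Number of peaks (in each circle, with its area growing with the number) in the gene or within 20 kb, for each of the 56 genes (rows, colored by role) in 5 peak lists (columns). Most circles are in the MS-275 gained column, with 26 at Etv6, 15 at Fli1 and 11 at Id1, and 19 genes have no circle.

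Among the 19 lineage factors, 13 had MS-275 gained peaks (92 peaks), 9 had MS-275 over CXD101 peaks (26 peaks), and 1 had a CXD101 gained peak. Spi1 encodes PU.1 and lies on chromosome 2, and it had 2 of the strongest peaks of all 56 genes. At intron element B, 6.70 kb from the nearest annotated Spi1 start, 111 MS-275 tags stood over 24.4 in vehicle, a fold of 4.41 (95% exact Poisson interval of the tags, 3.68 to 5.24). At intron element A, 5.43 kb downstream of a start, 110 MS-275 tags stood over 27.6, a fold of 3.89 (3.24 to 4.62). The gain at the promoter of Spi1, 0.309 kb upstream of a start, was smaller, with 52.5 tags over 27 and a fold of 1.91 (1.47 to 2.45). The intervals of both intron elements lie above that of the promoter. Element A was also higher in the MS-275 than in the CXD101 group, with a fold of 3.07 (2.56 to 3.65), whereas element B was in no list of that comparison. A further intronic site, 2.15 kb from a start, was in the direct list alone, with a fold of 2.14 (1.79 to 2.55). No CXD101 gained peak was called at Spi1.

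Of the 5 C/EBP genes, 4 had MS-275 gained peaks and Cebpa, which drives the step from common progenitors to granulocyte and monocyte progenitors, had 0 in all 6 lists. Cebpe, needed for late granulocyte maturation, had 8 peaks within 9.39 kb. Of these, 5 overlapped the promoter region, which is the 5 kb upstream of an annotated start, and their folds ranged from 2.40 to 3.68. The other 3 lay 5.23 to 6.22 kb downstream of a start, with folds of 2.01 to 2.91. Cebpb, which acts in emergency granulopoiesis and in the suppressive program of MDSCs, had 4 peaks with lower folds. Its promoter peak, 0.873 kb upstream of the start and also inside the overlapping gene Tmem189, had the highest vehicle control level among promoter peaks, 76. Beside it stood 134 MS-275 tags, a fold of 1.75 (1.49 to 2.05). The other 3 Cebpb peaks lay 13.1 to 21.4 kb downstream, where the nearest start is that of Tmem189, with folds of 1.58 to 2.75. Both the promoter peak and the peak at 13.1 kb were likewise above CXD101, by 1.58-fold (1.34 to 1.84) and 1.88-fold (1.39 to 2.50). Cebpd, an acute-phase member, had 1 peak 1.52 kb from its nearest annotated start, at a site also within Spidr. It had 90.1 tags over 30.4 and a fold of 2.90. Cebpg, which forms dimers with the other members, had 2 peaks downstream, and the stronger had 69.1 tags over 15.4, a fold of 4.27 (3.40 to 5.31). Both Cebpg peaks lie within Pepd, whose start is the nearest, so their assignment to Cebpg rests on the 20 kb rule.

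All 3 RUNX genes carried a peak that favored MS-275. Runx1, required for the emergence of blood stem cells, had 5 MS-275 gained peaks, each in an intron. The one with the highest −log10 p-value, 21, had 117 tags over 42.2, a fold of 2.74 (2.30 to 3.24), and the one with the largest fold, 3.79 (3.02 to 4.69), had 71.7 tags over 18.2. Runx1 also had 6 MS-275 over CXD101 peaks, all intronic, with folds from 1.56 to 3.06. Of these 6, 3 sites overlapped no MS-275 gained peak, and the others were the same 3 elements that exceeded vehicle. Runx2, best known from bone and from plasmacytoid dendritic cells, had 9 MS-275 gained peaks 24 to 128 kb from its nearest start, with folds of 2.32 to 4.38. At 2 of these sites MS-275 also exceeded CXD101, by 2.72-fold (2.10 to 3.48) and 2.34-fold (1.80 to 2.99). Runx3 was in the direct list alone, with 1 peak downstream of the gene, a fold of 1.71 and a −log10 q-value of 1.36, close to the lowest value in the lists (1.30, a q-value of 0.05).

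The ETS genes Etv6, Fli1 and Ets1 held 50 of the 144 peaks, and Ets2 and Elf1 held 0 in all lists. Etv6 is a repressor needed for blood stem cells to survive in bone marrow. It had 26 MS-275 gained summits in 19 intervals over 182 kb, all but 1 of them intronic, and folds ranged from 1.57 to 4.55. The largest, 4.55 (3.44 to 5.91), had 47.2 tags over 9.6. At 4 Etv6 sites MS-275 also exceeded CXD101, with folds of 2.22 to 2.79. Fli1, an ETS activator of megakaryocyte and myeloid genes, had 15 MS-275 gained summits in 12 intervals that spanned 43.7 kb from its promoter into an intron. A pair of intronic sites stood out by fold, 5.01 (3.61 to 6.80) with 34.1 tags over 6 and 4.88 (3.73 to 6.28) with 50.7 over 9.6. The 3 Fli1 promoter peaks had lower folds, between 1.90 and 2.76. Fli1 had more MS-275 over CXD101 summits, 7, than any other of the 56 genes, with folds from 1.72 to 3.84, and 2 of these overlapped no MS-275 gained peak. A pair of the Fli1 summits shared an interval, so by intervals Fli1 was level with Runx1. Ets1, which lies beside Fli1 on chromosome 9, had 9 MS-275 gained summits, all intronic, of which the strongest had 61.2 tags over 12 and a fold of 4.79 (3.75 to 6.03). At 1 Ets1 site MS-275 also exceeded CXD101, by 2.45-fold (1.74 to 3.37).

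**Figure D3:**
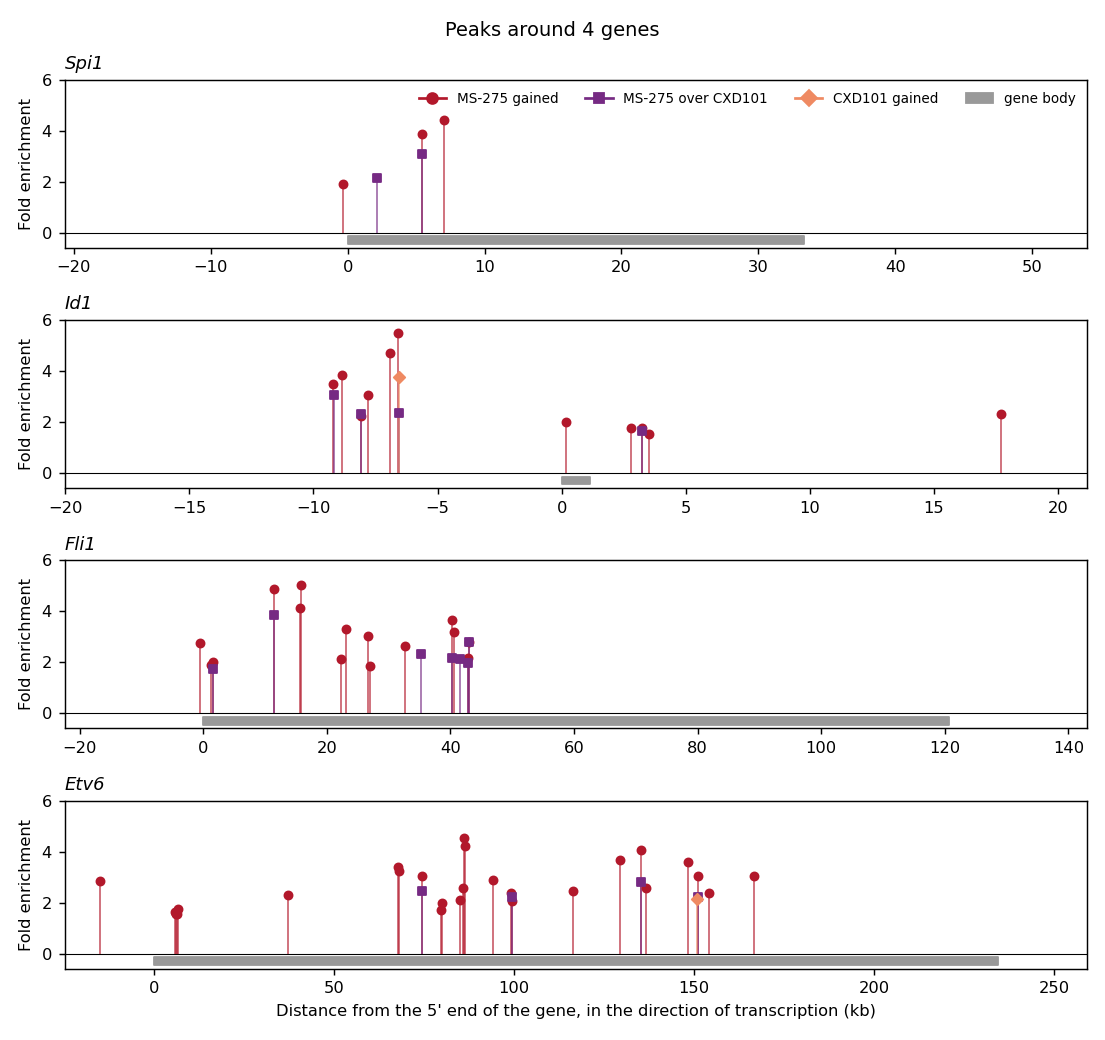
Fold enrichment at each summit (vertical axis) against distance from the 5' end of the gene in kb, in the direction of transcription (horizontal axis), at Spi1, Id1, Fli1 and Etv6, for the MS-275 gained, MS-275 over CXD101 and CXD101 gained lists. Spi1 peaks cluster at the start of the gene and in the first part of its body, Id1 peaks cluster upstream with a maximum of 5.51, and the Fli1 and Etv6 peaks are spread along introns.

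The remaining lineage factors fell on both sides. Myb, which keeps progenitors dividing and is normally shut off as monocytes mature, had 6 MS-275 gained summits in a stretch of 9.24 kb. All 6 lay inside the gene, near annotated starts within it and not at its 5' end. Of these, 4 overlapped the promoter region of such an internal start. Vehicle levels there were low, 6.4 to 14 tags, and folds ranged from 2.63 to 4.27. The summit at 0.112 kb from a start had 56.8 tags over 13.6 and a fold of 3.96 (3.07 to 5.03). The intronic Myb site 2.75 kb from a start was 4.13 times as high in the MS-275 as in the CXD101 group (2.95 to 5.62), the largest fold of any of the 39 direct peaks. Gfi1, a repressor that favors granulocytes over monocytes, had 3 peaks with folds of 2.65 to 3.34, 1 of them in its promoter region. Gata2, a factor of stem cells, mast cells and basophils, had 1 peak 0.225 kb from a start, with 34.1 tags over 12 and a fold of 2.70. Gfi1b, the erythroid and megakaryocytic relative of Gfi1, was the lineage gene with lower signal after treatment and is described with the lost peaks. Ikzf1, which encodes Ikaros, had no peak in any list.

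Of the Krüppel-like, early-response and orphan nuclear factors, 4 of 10 had MS-275 gained peaks (10 peaks) and 2 had MS-275 over CXD101 peaks. Klf13, a regulator of chemokine genes in lymphocytes, held 6 of the 10. The strongest had 68.2 tags over 15 and a fold of 4.33 (3.43 to 5.38), and a neighboring one had 64.7 over 13.4 and a fold of 4.56 (3.60 to 5.71). These Klf13 sites are intronic, but the nearest start is that of E030018B13Rik. At 3 Klf13 summits MS-275 exceeded CXD101, with folds of 2.12 to 2.60. Nr4a2 had 2 promoter peaks of 1.70-fold and 1.85-fold, among the smallest of the promoter gains. Nr4a1, which is required for Ly-6C-low patrolling monocytes, had 1 intronic peak of 2.34-fold, with 48.1 tags over 20. Egr1, an immediate early gene linked to macrophage differentiation, had 1 promoter peak of 2.36-fold, 4.43 kb upstream of a start. Klf6 was in the direct list alone, with 80.5 tags over 37.8 (at CXD101 depth), 15.9 kb upstream, and a fold of 2.10. Klf2, Klf4, Egr2, Egr3 and Nr4a3 had no peak in any list, although KLF4 and EGR2 are classical factors of monocyte and macrophage differentiation.

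Of the bZIP and stress factors, Bach2 and Maf had MS-275 gained peaks (2 of 5 genes, 4 peaks) and none had a peak in the direct list. Bach2, a repressor that restrains effector programs in lymphocytes and myeloid genes in their progenitors, had 3 intronic peaks with folds of 1.57, 3.29 and 4.19. The smallest of them, with a −log10 q-value of 1.31, was at the limit of the list. Maf, which limits self-renewal of macrophages, had 1 peak of 2.50-fold 0.353 kb from a start. Bach1, Nfe2l2 and Hif1a, which respond to heme, oxidants and low oxygen, had no peak in any list.

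Of the STAT and NF-kB factors, 3 of 7 had MS-275 gained peaks. Nfkb1, which encodes the p105 precursor of the p50 subunit, had 6 peaks, all inside the gene. Of these, 3 overlapped the promoter region of an annotated start within the gene. The promoter peak whose sequence is given above is intronic, 0.83 kb upstream of such an internal start. It had 53.3 tags over 12 and a fold of 4.17 (3.21 to 5.34), the largest fold of the 28 promoter peaks. The other NF-kB genes, Rel, Rela, Relb and Nfkb2, had no peak in any list. Stat3, a driver of MDSC expansion, had 1 peak 12.7 kb upstream, with 60.3 tags over 29 and a fold of 2.04. Stat6, the transducer of interleukin-4, had 1 peak that was in 3 lists. It lies downstream of the Stat6 gene, 8.63 kb from the nearest annotated Stat6 start, which is inside the gene. The site is within Nab2 and Nemp1, and the nearest start of any protein-coding gene is that of Nab2, a corepressor of EGR proteins. There 140 MS-275 tags stood over 56.4 in vehicle, a fold of 2.45 (2.09 to 2.86), and MS-275 exceeded CXD101 by 2.13-fold (1.82 to 2.49). The 2.13-fold is over a CXD101 control level of 65.1 at vehicle depth. In its own comparison with vehicle, CXD101 had 110 tags at this site, so the tags of the inhibitors differ by less than that fold.

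Of the bHLH, inhibitor and repressor genes, 5 of 7 had MS-275 gained peaks (23 peaks). Id1, which blocks E proteins and has been described as a driver of MDSC expansion, held the peak with the highest −log10 p-value of all 56 genes, 38.9. This element, 6.60 kb upstream of the start, had 92.7 MS-275 tags over 16 in vehicle, a fold of 5.51 (4.52 to 6.65). It was flanked by 5 further summits between 6.91 and 9.20 kb upstream, with folds of 2.23 to 4.69. Id1 also had a peak in its exon with a fold of 2.01 (1.67 to 2.39), and 4 summits downstream with folds of 1.54 to 2.30. The upstream cluster thus had larger folds than the gene itself, where the vehicle level was already 54 tags. Id3 had 2 peaks. The first (55.1 tags over 15.1, fold 3.48) lay inside the gene, in the promoter region of an annotated start within it. The second lay 3.03 kb downstream of the nearest annotated Id3 start (2.40-fold), and there MS-275 exceeded CXD101 by 1.95-fold. Id2, needed for innate lymphoid cells and dendritic cells, had 1 promoter peak of 1.79-fold. Tcf4, an E protein that specifies plasmacytoid dendritic cells, had 8 peaks over 318 kb, 3 of them in a promoter region. Its first promoter peak had 47.2 tags over 10.8 and a fold of 4.09 (3.09 to 5.31). Zeb2, which keeps monocyte identity, had 1 peak downstream of 3.06-fold. Bcl6 and Myc had no peak in any list.

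Of the MiT factors, which control lysosome and mast cell genes, Mitf had 1 intronic peak with 62.1 tags over 15.2 and a fold of 3.89 (3.05 to 4.90). Tfec, a member largely confined to myeloid cells, had 2 intronic summits of 3.10-fold and 3.53-fold, and at both MS-275 also exceeded CXD101, by 2.49-fold and 2.77-fold. Tfeb had no peak. Among the 5 ligand-bound nuclear receptors, 3 had MS-275 gained peaks. Nr1h3, which encodes the oxysterol receptor LXR alpha, had a peak at 0.043 kb from a start, with 69.9 tags over 29 and a fold of 2.37. Rxra, the common partner of these receptors, had 2 intronic summits of 2.72-fold and 3.81-fold. Rara, the retinoic acid receptor that drives granulocyte differentiation, had 1 intronic peak of 2.06-fold. Pparg, a factor of alveolar macrophages and lipid uptake, was in the direct list alone, with 1 intronic peak of 2.08-fold. Vdr, the vitamin D receptor, was the receptor with lower signal after treatment.

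CXD101 gained peaks were found at Id1, Stat6, Tcf4 and Etv6, with 1 each, and are given beside the MS-275 values at the same element. The comparisons share the vehicle libraries, so the 2 folds are not independent. At the Id1 upstream element, 63.3 CXD101 tags stood over a vehicle level of 16, a fold of 3.78 (2.97 to 4.75), whereas MS-275 had 92.7 tags and a fold of 5.51. The direct comparison called this element higher with MS-275 by 2.36-fold (1.93 to 2.86). That fold is over a CXD101 control level of 37.3 at vehicle depth and is larger than the difference between the 92.7 and 63.3 tags. At the Stat6 and Nab2 site, 110 CXD101 tags stood over 56.4, a fold of 1.93 (1.61 to 2.30), with 140 MS-275 tags at the same site. At the Tcf4 promoter the CXD101 fold was 3.29 (2.43 to 4.36) and the MS-275 fold 4.09, and no direct peak was called there in either direction. At the Etv6 intron site, 48.4 CXD101 tags stood over 22, a fold of 2.15 (1.63 to 2.78), and the overlapping MS-275 interval had 83.9 tags over 27 at its own summit, a fold of 3.03. With CXD101 the promoter region was called at 1 of the 56 genes, Tcf4, beside 0.244% of all genes.

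The lost peaks were few. Downstream of Gfi1b, the shared element was lower in both treated groups. It had 177 vehicle tags over 115 with MS-275, a fold of 1.54 (1.32 to 1.78), and in the other list 116 over 73.9 with CXD101, a fold of 1.56 (1.29 to 1.87). The summits of the 2 lists lie 23.8 and 24 kb from the nearest Gfi1b start, so their tag numbers belong to slightly different positions. The nearer element, 17.6 kb from the nearest Gfi1b start, had 44 vehicle tags over 14.3 with MS-275, a fold of 2.93 (2.15 to 3.92). It was in no CXD101 list. For all 3 peaks the nearest start is that of Gtf3c5, a subunit of a polymerase III factor. Vdr had a lost peak with each inhibitor, but at different introns. The MS-275 site had 81 vehicle tags over 40.2, a fold of 1.99 (1.58 to 2.47). The CXD101 site had 23 vehicle tags over 8.44, a fold of 2.54 (1.65 to 3.76), with a −log10 q-value of 1.93. No lost peak overlapped a promoter region of the 56 genes, beside 0.533% of all genes with MS-275 and 0.731% with CXD101. None of the 56 genes had both gained and lost peaks against vehicle.

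The inhibitors were compared directly as MS-275 over CXD101, at the same dose by weight (5 mg/kg) and days of dosing. Whether that dose gave equal inhibition of the histone deacetylases was not tested. The 39 peaks at 16 genes had folds from 1.56 to 4.13 with a median of 2.33. Of these 39, 30 overlapped an MS-275 gained peak and 9 did not, and 3 genes (Runx3, Klf6 and Pparg) had peaks in the direct list only. At 29 sites in 13 genes the summits of the direct and the MS-275 gained lists lay within 250 bp of each other, so that all 3 groups could be put on the depth of the vehicle group. The median control levels were 18 for vehicle and 25.7 for CXD101, beside a median of 60.3 MS-275 tags. Tags and control levels are unlike measures. At the Stat6 site the CXD101 control level was 65.1, whereas CXD101 had 110 tags there in its own comparison with vehicle. The distance of MS-275 from the other groups can therefore not be read from these values alone. CXD101 stood above vehicle at 27 of 29 sites, the exceptions being the Myb site (7.39 against 8.40) and 1 Etv6 site (32.5 against 37). The sites were selected for high MS-275 signal, and both control levels are the highest of several local averages, so the order of vehicle and CXD101 was given no test. At Spi1 element A the 3 values were 27.6 for vehicle, 35.0 for CXD101 and 110 for MS-275. At the Id1 upstream element they were 16, 37.3 and 92.7, the widest separation of the CXD101 from the vehicle control level, relative to vehicle. Here 37.3 is a control level and is lower than the CXD101 tags given above for this element. At the Ets1 site CXD101 and vehicle had nearly the same level, 12.3 and 12, beside 31.5 for MS-275. At the Cebpb promoter they were 76, 84.6 and 134.

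**Figure D4:**
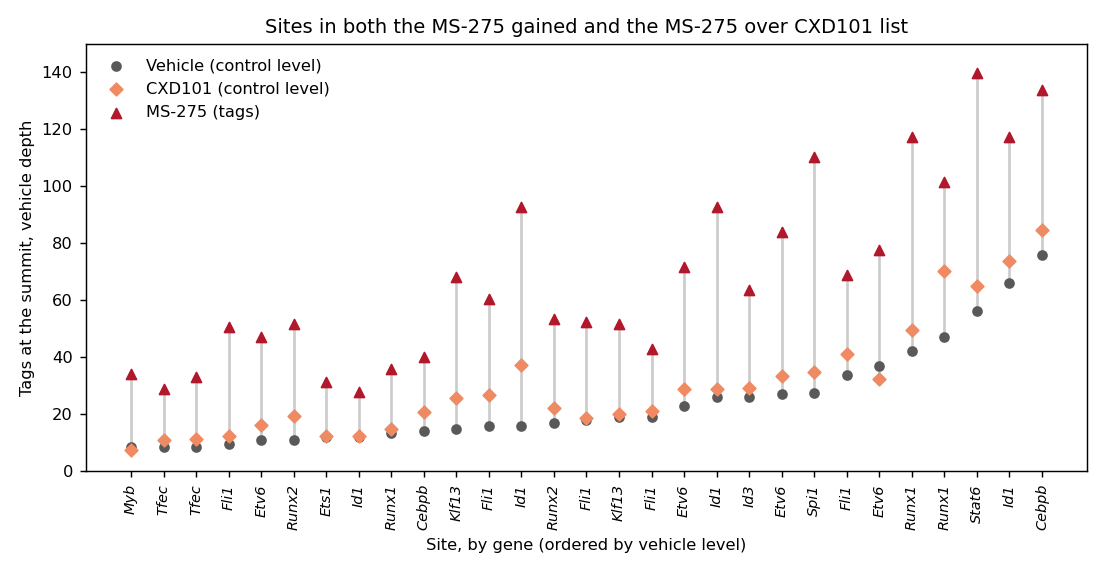
Tags or control levels at the summit on the depth of the vehicle group (vertical axis) at the 29 sites in both the MS-275 gained and the MS-275 over CXD101 list, by gene (horizontal axis, ordered by vehicle level). Vehicle and CXD101 are control levels and MS-275 is tags, which are unlike measures. MS-275 is highest at each site, as both lists require, and CXD101 lies above vehicle at 27 of 29 sites.

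Of the 144 MS-275 gained summits, 90 were in introns, 18 in exons, 19 upstream and 17 downstream of the gene, and 22 lay within 1 kb of an annotated start of the same gene. The nearest protein-coding start belonged to the same gene for 131 of them (91%). Promoter regions held 28 peaks at 14 of the 56 genes (Spi1, Cebpb, Cebpe, Gfi1, Gata2, Myb, Fli1, Egr1, Nr4a2, Nfkb1, Tcf4, Id2, Id3 and Nr1h3), beside 5.97% of all protein-coding genes with a promoter peak. Annotated starts inside a gene count here too, as at Myb, Nfkb1 and Id3. As a share of peaks, 23.6% of the 144 and 23.5% of the whole list lay in the 5 kb upstream of a start of any protein-coding gene, so the split between promoters and other sites was like that of the list. The median fold was 2.54 in promoter regions (28 peaks), 2.93 within the gene outside promoters (91 peaks) and 2.65 outside both (25 peaks), with vehicle levels of 17.5, 15.6 and 26.0 tags. The ranges of the 3 classes overlap, 1.70 to 4.17, 1.57 to 5.01 and 1.54 to 5.51. Of the 39 direct peaks, 27 were intronic, and promoter regions were called at 2 genes, Cebpb and Myb, beside 1.55% of all genes.

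**Figure D5:**
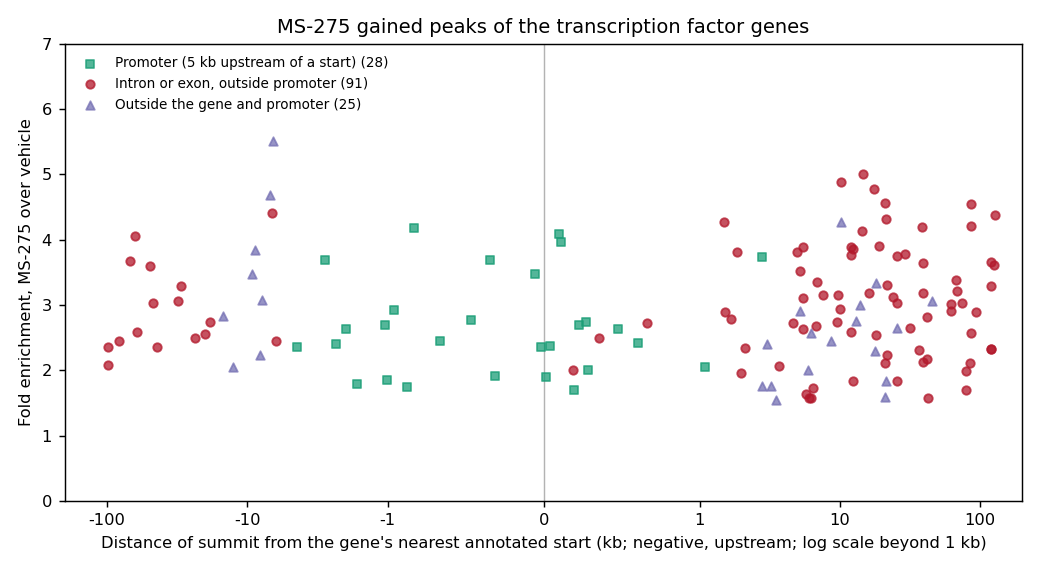
Fold enrichment of MS-275 over vehicle (vertical axis) against distance of the summit from the nearest annotated start of the same gene in kb (horizontal axis, log scale beyond 1 kb, negative values upstream), for the 144 MS-275 gained peaks by position class. The 28 promoter peaks reach 4.17, and the peaks inside genes and outside them reach 5.01 and 5.51 at distances of more than 5 kb.

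The letters near the summits were much like those of the whole list. The C/EBP letters TTGCNNAA, on either strand within 100 bp of the summit, were found at 14 of the 144 MS-275 gained peaks (9.72%) and at 9.02% of the whole list, beside 5.76% of windows of the same length at protein-coding starts. GGGCGG (KLF/SP) was found at 13.2% and 10.6%, beside 40.3% at starts. TGTGGTTT (RUNX) was found at 5 peaks (3.47%) in Fli1, Tcf4 and Id1, beside 1.66% of the list and 0.809% at starts. In the direct list RUNX letters were at 4 of 39 peaks (10.3%), 2 in Fli1 and 1 each in Runx1 and Id1, beside 1.82% of the whole direct list. The Fli1 and Id1 sites among them are the same as in the MS-275 gained list, so these are not separate finds. For the other letters with a match in the direct list, the shares of the 39 peaks and of the whole list were 7.69% and 8.12% for C/EBP, 5.13% and 8.97% for KLF/SP, 5.13% and 1.58% for PU.1, 5.13% and 3.94% for AP-1, and 2.56% and 3.45% for E-box. GAGGAAGT (PU.1) was found at 2 of the 144 peaks (1.39%), in Fli1 and Zeb2, beside 1.83% of the list. TGACTCA or TGAGTCA (AP-1) was found at 3.47% and 2.79%, beside 2.83% at starts, and CACGTG (E-box) at 3.47% and 2.96%, beside 5.72% at starts. The CRE letters TGACGTCA, the NF-kB letters GGGANTTTC and the EGR letters GCGTGGGCG had 0 matches at the 144 peaks, beside 0.165%, 0.696% and 0.106% of the list and 2.03%, 0.777% and 0.611% at starts. Sites of some of these letters can overlap, and the counts are few. The median GC content within 100 bp of the summit was 50.2% for the 144 peaks and 49.8% for the list.

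The 19 genes without a peak in any list were Cebpa, Klf2, Klf4, Egr2, Egr3, Nr4a3, Bach1, Nfe2l2, Hif1a, Nfkb2, Rel, Rela, Relb, Bcl6, Myc, Ets2, Elf1, Tfeb and Ikzf1. A gene without a peak may be open or closed in all groups alike, since the lists hold differences. Another 71 transcription factor genes of myeloid cells, such as IRF, Jun, Fos and MEF2 members, were counted beside the 56. Of these, 23 (32.4%) had MS-275 gained peaks (82 peaks), 0 had CXD101 gained peaks, 4 had MS-275 lost peaks and 7 had CXD101 lost peaks, and 11 (15.5%) were in the direct list. The MS-275 gained and direct shares lay between those of the 56 genes and those of all genes. The lost shares, 5.63% with MS-275 and 9.86% with CXD101, were above both. They stood beside 3.57% of the 56 genes in each list and 2.93% and 3.65% of all genes. The CXD101 gained share was below both.

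The pooled MS-275 and CXD101 groups each had 1.14 times the depth of the vehicle group, and MS-275 had 1.01 times that of CXD101. Peaks near marker genes of the cell types that a tumor sort could hold were counted as well. MS-275 gained peaks lay at 5 of 8 monocyte and 5 of 8 neutrophil markers, 3 of 7 T cell markers (the neighboring Cd3 genes), 1 of 6 B cell, 1 of 5 NK cell and 1 of 6 hepatocyte markers, and 0 of 5 erythroid markers. The monocyte genes were Fcgr1, Itgam, Cx3cr1, Lyz2 and Ly6c2, and the neutrophil genes were Cxcr2, S100a8, Elane, Mpo and Ly6g. The share of all protein-coding genes is the 18.8% given above. Lost peaks lay at the monocyte genes Itgam and Cx3cr1 and at Cd3g with both inhibitors, and at the neutrophil gene Ltf with MS-275. Itgam, Cx3cr1 and Cd3g thus had both MS-275 gained and MS-275 lost peaks. In all, 2 of 8 monocyte markers (25%) had lost peaks with each inhibitor, beside 2.93% and 3.65% of all genes. The part of other cells in the peaks at the 56 genes was not tested.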

How the data were processed

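ATAC-seq libraries of M-MDSCs (2 per group: vehicle, MS-275, CXD101) were grouped by their treatment labels. The authors aligned reads to mm10 with Bowtie2 and called differences between pooled groups with MACS2 2.2.7.1, with a shift of 0, so summits were not moved to the transposase cut. The 6 deposited lists give, per summit, the fold enrichment (a linear ratio with a pseudocount of 1), a −log10 p-value and a −log10 q-value. The deposited score was not used here, and the summit was deposited as an offset from the peak start. No listed q-value exceeds 0.05, whereas the methods name a p-value under 0.00001, which was added as an alternative after seeing the data. Absolute read depth was not used here.

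Peaks were overlapped (at least 1 base) with GENCODE M21 genes and 20 kb on either side. A promoter was the 5 kb upstream of any annotated start of a gene, including starts inside the gene. The genes and the lists they are set beside were chosen with earlier results of these data known. Named were all genes with a peak in a CXD101 gained, lost or direct list, the 10 with most MS-275 gained peaks, the 10 with the highest −log10 p-value, and those with a promoter peak. The other 8 genes with MS-275 gained peaks were described after their values were seen. No p-value over genes or peaks was computed, and nothing was tested between libraries.

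Tag numbers were recovered by solving each peak's fold enrichment and p-value together, given that treated tags are whole before MACS2 scales them by 1 factor per list. Of all peaks, 11797 were solved and 3 were not, 10 had a second solution, and every peak named here was solved. On simulated peaks, 100% were recovered at each of 4 scaling factors. MACS2 takes the largest local average as its control, so control levels are not the tags of the control group at the summit. They can be lower than those tags. At the Stat6 site CXD101 had 110 tags as the treated group and a control level of 65.1 in the direct list, both at vehicle depth. Intervals of a fold are exact 95% Poisson intervals of the treated tags, and those of a share are 95% Wilson intervals. Neither covers the spread between libraries, since the lists are pooled. The fold intervals cover counting error of the treated tags and take the control level as exact. The tags carry no molecular identifiers. The share intervals treat the genes as random draws, although they were chosen by name, so they are no test against the background. Sequences were read from GRCm38, which is mm10, and motif letters were looked for up to 100 bp from summits, on either strand. Computations used Python with pandas and scipy, samtools and pysam. Alternatives were stricter q-values and folds, gene bodies, flanks of 5 and 50 kb, the nearest start, intervals for summits, all genes as background, and a pseudocount of 0.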

Additional observations from a re-analysis of the deposited data

Results flagged for a closer look

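The effects of the inhibitors differed at these genes by the direct comparison of the pooled groups. The list of MS-275 over CXD101 held 39 peaks in the windows of the 56 genes, at 16 of them, and the reverse list held 0. No peak had a q-value above 0.05 in the authors' Poisson test, and 37 of the 39 had a p-value under 0.00001, the threshold that the methods name. The test measures counting error in pooled libraries, so the difference has no replicate check. It also sets MS-275 tags against a CXD101 control level, which can be lower than the CXD101 tags at the site. The sites with the largest folds were Myb (4.13), Fli1 (3.84), Spi1 (3.07) and Id1 (3.07). No group had the 4 samples that a search for outlying libraries needs.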

How the results depend on the processing

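Of 152 alternative values, 112 stayed close to the reported value (within 1.5 times for a count) and 40 moved further. With gene bodies alone, the CXD101 gained genes and peaks fell to 2, the MS-275 lost ones to 1, the CXD101 lost ones to 1, and the MS-275 over CXD101 genes to 10. With 5 kb on either side, the same 3 lists against vehicle gave 2, 1 and 1. At these settings the MS-275 gained density was 3.09 (bodies) and 3.13 (5 kb) per 100 kb, and at a q-value under 0.001 it was 2.07. CXD101 lost genes and peaks fell to 1 at a q-value under 0.01 and to 0 under 0.001, and both lost lists fell to 1 at a fold of at least 2. CXD101 lost peaks rose to 4 with 50 kb on either side. With peaks assigned to the nearest start, lost peaks were found at 4 genes for MS-275 and 5 for CXD101 (7 peaks), so that CXD101 lost peaks then outnumbered the CXD101 gained ones. At a p-value under 0.00001, an alternative chosen after seeing the data, 32, 4, 2, 2 and 15 genes had MS-275 gained, CXD101 gained, MS-275 lost, CXD101 lost and MS-275 over CXD101 peaks, with Runx3 leaving the last list, and the background shares of the first and the last became 17.8% and 6.1%. The background shares for MS-275 gained, CXD101 gained, MS-275 lost, CXD101 lost and MS-275 over CXD101 were 13.7%, 0.713%, 1.95%, 2.33% and 4.71% of all annotated genes, and 10.1%, 0.542%, 1.5%, 1.6% and 2.93% with gene bodies alone, where fewer bases are searched. The 32 genes with MS-275 gained peaks varied from 23 to 40 over the alternatives, and the 16 with MS-275 over CXD101 peaks from 10 to 22. A pseudocount of 0 left 0 of 144 peaks solvable, so it gave no value. No library could be left out. No paired analysis was possible because the files hold pooled libraries only. A site outside a list may still differ between groups by less than its tags could show.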
